A study of Homo sapiens with 24 samples.

Results

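RNA of U87 cells irradiated with 10 Gy of protons was compared with RNA of untreated U87 cells, gene by gene across the genome. U87 MG is an established human glioblastoma line, and cells were collected 24 h after irradiation. The RNA of irradiated cells carried Cy5 and that of untreated cells carried Cy3 on each 2-colour array, without a dye swap, so that a dye effect and an effect of proton therapy (PT) cannot be told apart. The comparison was chosen by its label, as the scanner tables that name a proton dose of 10 Gy and no Si306, the kinase inhibitor added in other samples of the study. The headers of the tables name 8 arrays scanned 3 times each behind the 24 labelled biological replicates of the whole study, and 1 table labelled U87 10 Gy, replicate 2, is a scan of an array that otherwise carries 2 Gy. Its log2 ratios differed by an SD of 0.0752 across genes from that array and by 0.173 from the arrays of its own label. It was left out, which left 5 of 24 scans on 2 of 8 arrays, with replicates 1, 3 and 5 on array 1 and replicates 4 and 6 on array 2. Pairs of scans from 1 array differed by a median SD across genes of 0.0717 in log2 ratio, and pairs from the 2 arrays by 0.102. For this reason the scans of each array were averaged, and n is 2 arrays. Whether the 2 arrays carry RNA of separate cultures is not given, so that the p-values measure the spread between arrays, which may be technical. U87 2 Gy, the other group used here, was measured in the same way on 2 further arrays of the same slide, with the same kind of untreated control and with 1 mislabelled scan left out as well.

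Ionizing radiation breaks DNA, and the kinases ATM and ATR pass the damage on to the transcription factor p53. In cells with intact p53, as in U87, this factor switches on genes that stop the cell cycle, repair DNA or start apoptosis. Genes of G2 and mitosis are repressed in arrested cells through the DREAM and MuvB protein complexes, which bind the cell cycle homology region (CHR, here the letters TTTGAA) close to the start of such genes, often with CCAAT boxes of the factor NF-Y upstream of it.

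The promoters of 3 mitotic genes that were down regulated at 10 Gy, picked as examples, show such letters. Those of ANLN and NEK2, also mitotic and down regulated, are not shown. Each stretch covers the 150 bases before the RefSeq start (GRCh38.p14, plus strand), with matches to CCAAT or TTTGAA on either strand in capitals. The stretches lie at chr2:26785906-26786055 for CENPA, chr5:138178962-138179111 for KIF20A and chr15:69414199-69414348 for KIF23.
CENPA: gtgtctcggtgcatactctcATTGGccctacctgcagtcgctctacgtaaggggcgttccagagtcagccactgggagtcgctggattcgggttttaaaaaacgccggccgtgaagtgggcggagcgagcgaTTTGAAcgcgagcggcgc
KIF20A: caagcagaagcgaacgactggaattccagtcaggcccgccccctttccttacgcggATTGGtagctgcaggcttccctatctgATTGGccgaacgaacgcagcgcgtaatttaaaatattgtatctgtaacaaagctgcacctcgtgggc
KIF23: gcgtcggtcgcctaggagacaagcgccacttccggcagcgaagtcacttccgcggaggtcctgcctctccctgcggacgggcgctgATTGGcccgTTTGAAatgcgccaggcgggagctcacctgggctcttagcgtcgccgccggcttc
CENPA held a CCAAT box 130 bases and a TTTGAA 18 bases before the start. In KIF23 the same letters stood 64 and 55 bases before the start. KIF20A held CCAAT boxes 94 and 67 bases before the start and no TTTGAA in this stretch.

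Of 22925 genes tested, 221 (0.964%) were differentially expressed genes (DEGs), with an adjusted p under 0.05 in limma and a change of at least 2-fold. Up regulated DEGs numbered 188 (0.820%) and down regulated DEGs 33 (0.144%), and 218 of the 221 had the same sign on both arrays while the others were measured on 1 array. In both channels, every DEG was well above background on at least 1 array. Smaller changes were far more frequent. With an adjusted p under 0.05 and no limit on size, 7121 genes (31.1%) were higher and 6020 (26.3%) lower after 10 Gy, and with a limit of 1.5-fold there were 724 (3.16%) and 354 (1.54%). Most changes were small. Across genes the log2 fold change had a median of 0.02 and an SD of 0.30. The most negative value was -1.58 and the highest 3.19. For spike-in RNAs the scanner software reported a slope of measured against true log ratio of 0.81 to 0.83 in these scans. The slope refers to the log ratio of that software, which was compressed. The compression of the values given here was not measured.

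The split between up and down regulated DEGs depended on the scaling. It was 85.1% up regulated in the values reported here, 65.2% with the log ratio of the scanner software (568 up, 303 down), 65.1% with the series matrix and 99.6% with each scan centred on its median (771 up, 3 down). Under median centring the median log2 fold change of all genes was 0.22, and gene values under it are therefore given relative to that median. The up regulated share was 67.7% when probes of at least 60% G and C were removed and 67.2% at a limit of 1.5-fold. Of the main DEGs, 216 were also called with the scanner's log ratio and 191 with median centring. The number of down regulated DEGs fell from 33 to 15 when all 24 scans were used under their labels, and to 12 (with 116 up) when spots marked as outliers were kept in the background fit, an alternative chosen after the data were seen. Under that alternative 3288 genes had an adjusted p under 0.05, against 13141.

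**Figure D1:**
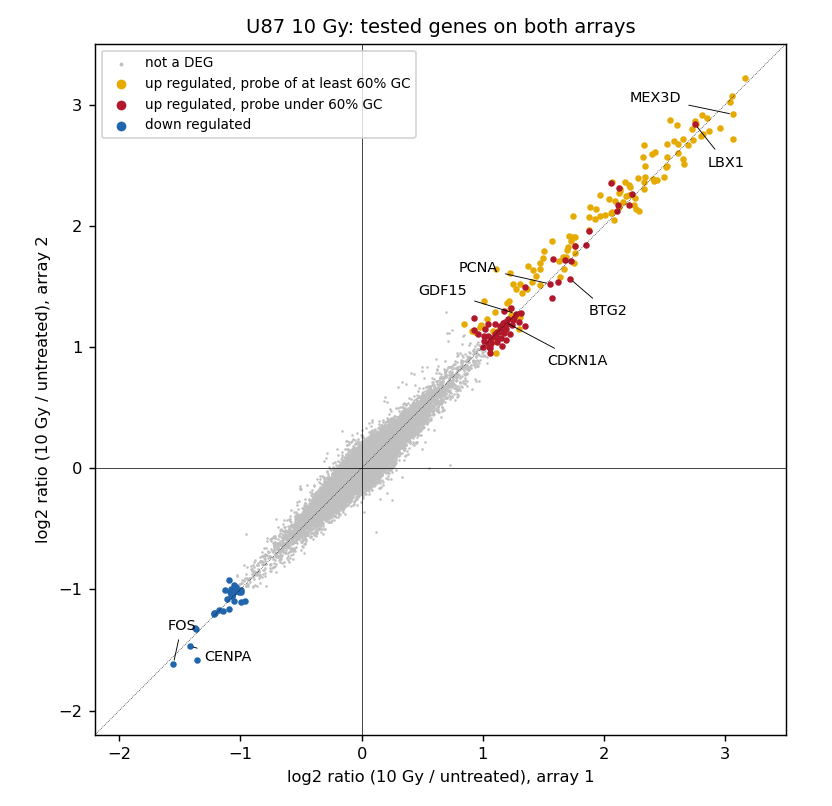
Log2 ratio of irradiated to untreated cells on array 1 (x axis) and array 2 (y axis) of U87 10 Gy for each gene measured on both, with DEGs coloured by direction and probe GC content and the dotted line marking equal values. The DEGs lie along that line, with many more points on the positive side than on the negative one.

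The down regulated DEGs with a symbol are described one by one, since they were not tested for a common function. Of the 33, 32 lay on probes under 60% GC and 19 of these had a current symbol. FOS, a subunit of the AP-1 transcription factor, was the lowest. Its log2 ratio was -1.55 on array 1, where only 1 of 3 scans had an unmarked spot, and -1.61 on both scans of array 2 (log2 fold change -1.58, SE 0.035, adjusted p = 7.56e-11). CENPA, the histone H3 variant that marks centromeres, gave -1.42 and -1.47 (log2 fold change -1.44, SE 0.034, adjusted p = 1.31e-10). KIF20A, a kinesin of cytokinesis, gave -1.21 and -1.20 (log2 fold change -1.21, SE 0.031, adjusted p = 2.92e-10). Both arrays were below 0 in each of these genes, and their difference was a small part of the change. The scans of the array pair ranged from -1.49 to -1.32 for CENPA and from -1.23 to -1.19 for KIF20A.

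The probes of these genes carry between 35% and 55% G and C. The deposited files place them (hg17) at chr14:74817967-74818026 for FOS, chr2:26928565-26928624 for CENPA and chr5:137549980-137550703 for KIF20A, the last a span longer than the 60 bases of a probe. The first 30 bases of each probe are shown with G and C in capitals.
FOS: aGaGGGttCCtGtaGaCCtaGGGaGGaCCt
CENPA: taGtttGtGaGttaCtCatGtGaCtatttG
KIF20A: tCaaGCCttGaCCaCttGtGatGaCatCtt

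Other mitotic genes were closer to the limit. ANLN, which scaffolds the cleavage furrow, gave log2 ratios of -1.09 and -1.02 on the 2 arrays. KIF23, a kinesin of the central spindle, gave -1.09 and -0.92, and NEK2, a kinase of centrosome separation, gave -0.99 and -1.02. Their log2 fold changes were -1.06, -1.01 and -1.01, so that each is a DEG by a narrow margin. FAM72D gave -1.06 and -1.02, but its array name is FAM72A and the family has near-identical copies, so that the member cannot be told. The values just inside the limit were -1.01 for NEK2 and -1.003 for ID4, a dominant negative regulator of helix-loop-helix factors, and those just outside were -0.997 for MCM3AP-AS1 and -0.99 for LATS2, a kinase of the Hippo pathway.

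The other down regulated DEGs with a symbol were of mixed function. TXNRD1, the cytosolic thioredoxin reductase, gave -1.05 and -1.10. SMS, spermine synthase, gave -1.07 and -1.06, and NAMPT, the rate-limiting enzyme of NAD salvage, gave -0.96 and -1.10. Extracellular matrix genes among them were ADAMTS1, a secreted protease (-1.06 and -1.02), and PLOD2, a lysyl hydroxylase of collagen (-1.05 and -0.97). PDP1, the phosphatase of pyruvate dehydrogenase, gave -1.09 and -1.16, SLC38A2, an amino acid transporter, -1.05 and -1.03, and NEMP1, a protein of the nuclear envelope, -1.08 and -1.05. QKI, an RNA-binding protein, gave -1.37 and -1.32, POGZ, a chromatin protein, -1.22 and -1.21, and STAG2, a cohesin subunit, -1.18 and -1.17.

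**Figure D2:**
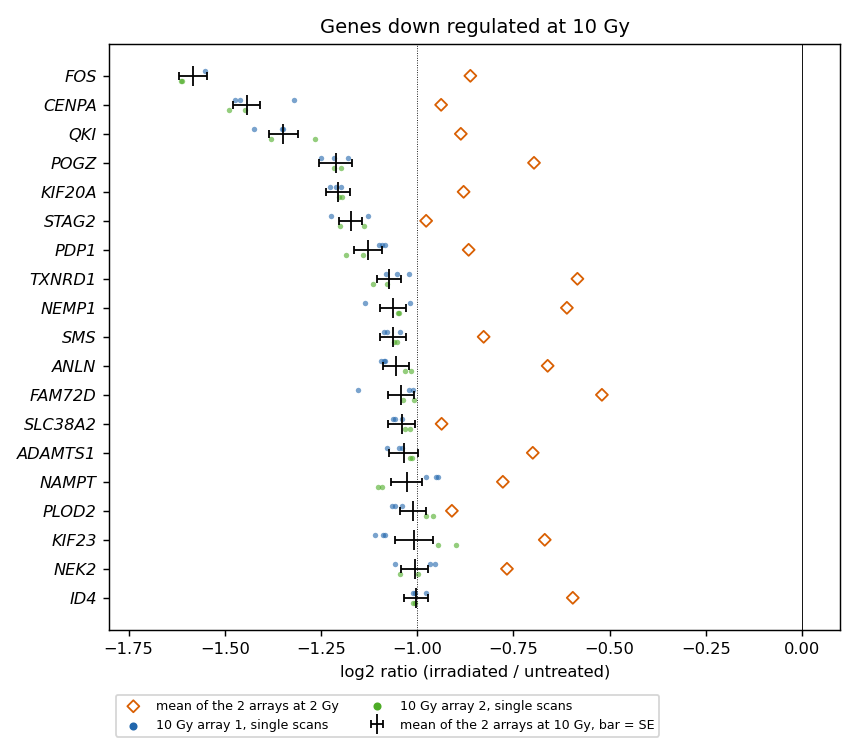
Log2 ratio to untreated cells (x axis) of the 19 named down regulated genes, with single scans of both 10 Gy arrays as dots, their mean with its SE as a black bar, and the mean of the arrays at 2 Gy as an open diamond. FOS (-1.58) and CENPA (-1.44) are the lowest, and each 10 Gy mean lies below the 2 Gy mean.

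Another kept probe of the same gene was available for 10 of the 32 down regulated DEGs on probes under 60% GC. It had the same sign in 7 and was at least 2-fold lower in 2, and its log2 fold change ranged from -1.20 to 0.13 around a median of -0.30. The other probes gave -1.18 and -1.22 for NAMPT, -1.03 for SMS, -0.75 for ADAMTS1 and -0.74 for NEK2. Those genes were thus lower on each probe measured. The other probes of QKI gave -0.26, 0.35 and 0.07, that of POGZ 0.13, that of STAG2 0.06, that of NEMP1 -0.21 and that of SLC38A2 -0.38, so that the fall of these genes holds for the probe that stood for the gene and was not seen at that size on the others. FOS, CENPA, KIF20A, ANLN and TXNRD1 had no other kept probe. When outlier spots were kept in the background fit, CENPA was -0.81, KIF20A -0.68, QKI -0.77, ID4 -0.61, NEK2 -0.59 and FAM72D -0.59, and these 6 no longer had an adjusted p under 0.05, while FOS was -1.21 and kept its call. In all, 37 of 118 named genes compared, among them PPM1D, PVR, PES1, FLNC, COL7A1 and CENPK, lost an adjusted p under 0.05 in that setting.

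Of 41 genes of mitotic entry and exit, all tested, 28 fell and 5 rose with an adjusted p under 0.05, against 26.3% and 31.1% of all genes, and their median log2 fold change was -0.37 (0.02 over all genes). At least 1.5-fold lower were 15 of them, including UBE2C, a ubiquitin-conjugating enzyme of the anaphase-promoting complex (-0.87), and TOP2A, the topoisomerase of chromosome condensation (-0.79), and only ANLN and NEK2 passed 2-fold. Of 12 mitotic kinesins tested, 11 fell (median -0.36), KIF20A and KIF23 as DEGs, and KIF22, named here after its value was seen, rose by 0.44. The list of centromere and kinetochore genes moved both ways. Of its 26 members 11 rose and 9 fell, with a median of 0.05. CENPA (-1.44) and NDC80, an outer kinetochore subunit (-0.80, with -0.14 on another probe), were the lowest, and CENPK (0.73) and SPC24 (0.66) the highest. In RNA of whole cultures, fewer cells in a phase and less RNA per cell cannot be told apart. Over the alternatives in which list medians were calculated, they stayed between -0.43 and -0.22 for mitotic entry and exit. For kinesins they stayed between -0.61 and -0.30. They were not calculated with outlier spots kept in the background fit, with all scans used under their labels or in some other settings.

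Of 39 DNA replication genes, 23 rose and 2 fell (31.1% and 26.3% of all genes), with a median log2 fold change of 0.13. PCNA, the sliding clamp of DNA polymerases and also a p53 target, gave log2 ratios of 1.55 and 1.52 on the 2 arrays. It was followed by TYMS, thymidylate synthase (0.90), POLA2, a subunit of polymerase alpha (0.71), and MCM5, a helicase subunit (0.66), while RRM2, a ribonucleotide reductase subunit named here after its value was seen, was the lowest (-0.37, but 0.19 as the mean over its probes). Of 30 clustered histone genes, 15 rose and 4 fell (median 0.09) and none was a DEG. Histone genes share long stretches of sequence, so that a probe can also read its neighbours.

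Most of the listed targets of p53 rose, though the lists were not tested as sets. Of 21 genes of arrest and feedback, all tested, 19 rose and 1 fell (31.1% of all genes rose), the median log2 fold change was 0.67, and 5 were DEGs. BTG2, an antiproliferative factor, gave log2 ratios of 1.72 and 1.56. GDF15, a secreted stress cytokine, gave 1.27 and 1.28, PPM1D, the phosphatase that switches p53 signaling off, 1.24 and 1.18, and CDKN1A, the inhibitor p21 of cyclin-dependent kinases, 1.19 and 1.20. TRIAP1, a small p53-regulated survival factor named here because the count is 5, gave 1.12 and 1.04. Both arrays were above 1 for each of these genes. CDKN1A was 1.33 on another probe. MDM2, the ubiquitin ligase of p53, was 0.10 on the probe that stood for it, with an adjusted p that exceeded 0.05 under several alternatives, and 0.27 on another probe (adjusted p = 3.24e-05).

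Of 17 death genes 13 rose and 1 fell (31.1% and 26.3% of all genes; median 0.18), with FAS, a death receptor (log2 ratios 1.11 and 1.09), and BBC3, the BH3-only protein PUMA, as DEGs. BBC3 rested on a probe of 85% GC (2.82 and 2.76 on the arrays), and its other probes gave 0.34 at 60% GC and 1.21 at 55% GC. Of 16 genes of repair and metabolism 13 rose and 2 fell (median 0.39). FDXR, ferredoxin reductase, gave 1.15 and 1.16 and was the only DEG among them. Where list medians were calculated for an alternative, they were 0.62 to 0.85 for arrest, 0.17 to 0.45 for death and 0.25 to 0.60 for repair. Those ranges do not cover the fit with outlier spots kept, the use of all scans under their labels or some other settings.

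The dose contrast was tested in the same model. Of 22909 genes with values at both doses, 2260 (9.87%) were higher and 2546 (11.1%) lower at 10 Gy than at 2 Gy. In the p53 arrest list 16 of 21 genes were higher at 10 Gy, and in the list of mitotic entry and exit 23 of 41 were lower. The log2 fold change at 2 Gy was 0.53 for BTG2, 0.31 for GDF15, 0.81 for PCNA and 0.38 for CDKN1A, which lie 1.11, 0.97, 0.73 and 0.81 below the 10 Gy values. FOS was -0.86, CENPA -0.94 and KIF20A -0.88 at 2 Gy, so that they had already fallen at the smaller dose, and the values at 10 Gy minus those at 2 Gy were -0.72, -0.51 and -0.33. SLC38A2 (-0.94 at 2 Gy, adjusted p of the difference = 0.175) and PLOD2 (-0.91, adjusted p = 0.183) were not shown to differ between the doses. Each dose occupied its own positions on the slide, and the untreated RNA may be shared, so that position and dose cannot be told apart.

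**Figure D3:**
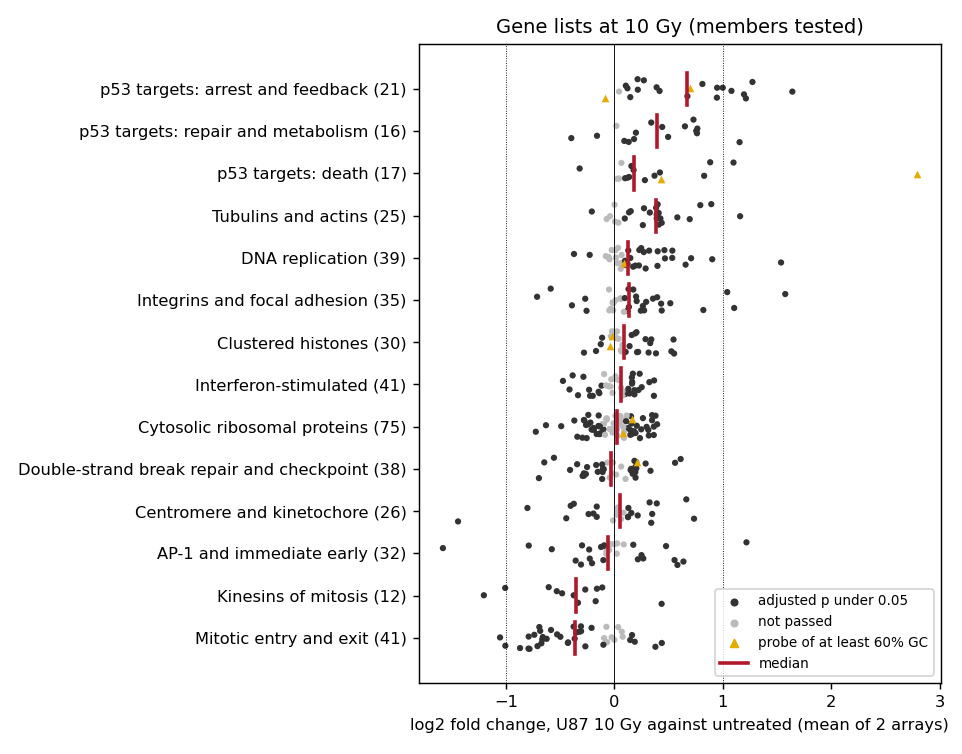
Log2 fold change at 10 Gy (x axis) of the tested members of 14 gene lists, with 1 point per gene, the median as a red line and members that did not pass the test in grey. Genes of p53 arrest lie mostly above 0 (median 0.67) and those of mitotic entry and exit mostly below (median -0.37).

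Signaling and repair genes showed single changes without a common direction, and their counts stand against 31.1% higher and 26.3% lower of all genes. Of 32 AP-1 and immediate early genes 13 fell and 9 rose (median -0.06, a sign that turned under some alternatives). FOS and MYC (-0.79, with 0.08 on another probe) fell, and JUN, the partner of FOS (0.64), and IER5 (1.22), a stress-induced gene, rose. IER5 also had a GC-rich probe, which gave 2.26. Of 38 genes of double-strand break repair and checkpoints 17 fell and 14 rose (median -0.03, which also turned sign), with H2AX, the histone phosphorylated at breaks, at -0.70, PRKDC, the catalytic subunit of DNA-PK, at -0.65 (-0.14 on another probe), and RAD51C, of homologous recombination, at 0.61. FTH1, a ferritin chain of the NRF2 list, differed between its probes. The probe that stood for the gene gave -0.66, and the others gave -0.59, -0.29, 0.07 and, at 73.3% GC, 0.52. Of 26 genes of the NRF2 antioxidant response 12 rose and 8 fell. TXNRD1 (-1.07) was the lowest, while OSGIN1, a target of NRF2, was 0.83. In the unfolded protein response list 15 of 33 rose and 11 fell, from PDIA4, a chaperone (-0.94), to DDIT3, a death-promoting factor (0.72).

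Of 25 tubulin and actin genes 19 rose and 1 fell (31.1% and 26.3% of all genes; median 0.38), with TUBB4A, a beta tubulin (1.16 on the probe that stood for it, 0.10 on another), the only DEG, and TUBA1A, an alpha tubulin, at 0.79. Of 35 integrin and focal adhesion genes 20 rose and 5 fell (median 0.13), and FLNA and FLNC, which crosslink actin (1.58 and 1.10), and ITGA5, the fibronectin receptor chain (1.04), were DEGs. Of 25 collagen genes 11 rose, 2 fell and 12 did not pass (median 0.07). COL7A1, of anchoring fibrils, was up regulated (1.13), and COL6A2 as well (1.11 on a probe of 66.7% GC, with 0.32 on another probe). Of 34 proteases and inhibitors of the matrix 14 rose, 10 fell and 10 did not pass (median 0.04). MMP2, a gelatinase (0.78), and CTSD, a lysosomal protease (0.83), were higher, and ADAMTS1 (-1.04) was lower.

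The remaining lists had medians between 0.01 and 0.17 and held no DEG but ID4. Over all genes 31.1% were higher and 26.3% lower. Of 41 interferon-stimulated genes 17 rose and 11 fell (median 0.06), and of 18 genes of HLA class I and peptide loading 12 rose and 3 fell (median 0.17). Of 75 cytosolic ribosomal protein genes 25 rose and 25 fell (median 0.02). In the list of secreted factors IL6 was the lowest (-0.62) and LIF, a cytokine of the same family, the highest (0.57). Receptor kinases ranged from DDR2 (-0.63) to AXL (0.73), a list whose median of 0.06 turned negative under some alternatives. CA9 (0.86) and PFKL (0.85, with 1.29 on another probe), of pH regulation and glycolysis, led 34 genes of glycolysis and hypoxia, of which 19 rose.

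The study's own pathway lists for 10 Gy were chosen on these samples and are not independent evidence of a direction. Over all genes 31.1% rose and 0.820% were up regulated DEGs. Of 30 PI3K-Akt genes tested 19 rose and 5 were DEGs, namely CDKN1A, ITGA5, COL6A2, GNB2, a G protein subunit (1.19), and PKN2, a kinase (2.39). PKN2 rested on a probe of 75% GC, and its other probes gave -0.43 and 0.21. COL6A2 also rested on a GC-rich probe (66.7%), with 0.32 on its other probe of 55% GC. Of 21 genes of the proteoglycan list 17 rose and 6 were up regulated DEGs, of which CDKN1A, FAS, FLNA, FLNC and ITGA5 lay on probes under 60% GC and WNT6 did not. Of 11 p53 signaling genes 9 rose and 4 were DEGs, with CDKN1A, FAS and PPM1D under 60% GC and BBC3 above it. Of 16 cAMP genes 4 were up regulated and 1, FOS, down regulated. The channels HCN4 (2.21), HCN2 (2.07) and GRIN2D (2.15), all on GC-rich probes, were among the former. Of 14 Hippo genes 3 were DEGs, all on GC-rich probes, including WNT6, a secreted ligand (2.81, with -0.07 on another probe), and LATS2 (-0.99) and CTNNB1, beta-catenin (0.99, with 0.55 on another probe), lay on opposite sides of 0.

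The base composition of the probe moved with the up regulated calls. Probes under 60% GC stood for 21775 genes, of which 65 were up and 32 down regulated. Probes of at least 60% GC stood for 1150 genes, of which 123 were up and 1 down regulated. In the bin of 65% GC and above, 22.2% of 517 genes were up regulated, against 1.26% between 60% and 65%, 1.11% between 55% and 60%, and 0.061% between 35% and 40%. The median log2 fold change in the top bin was 0.18 at 10 Gy and 0.17 at 2 Gy, and 0.02 and 0.09 on the arrays of Si306 with 10 or 2 Gy, which had PT alone as control. Of the 33 down regulated DEGs, 31 lay on probes between 35% and 50% GC, the bins that also hold most tested genes (28.6%, 21.3% and 22.9%).

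**Figure D4:**
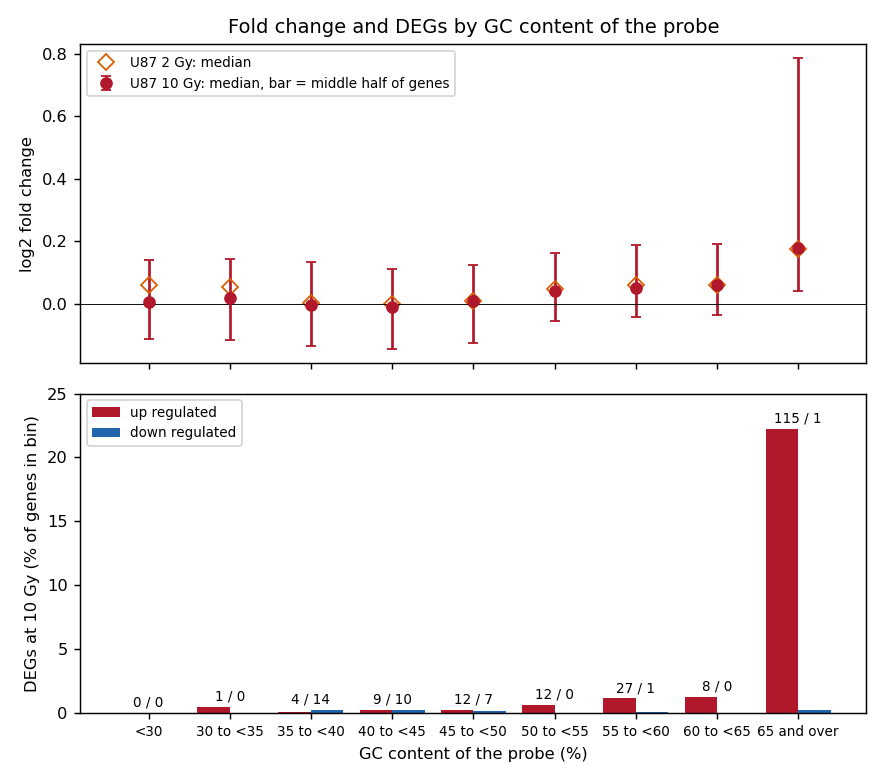
Upper panel, log2 fold change by GC content of the probe in percent, as the median at 10 Gy with a bar from the lower to the upper quartile and the median at 2 Gy as a diamond. Lower panel, percent of genes in each bin that were DEGs at 10 Gy, with the numbers up and down regulated above the bars, where 115 of 517 genes at 65% GC and above were up regulated.

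Genes with probes on both sides of the limit allowed a comparison within a gene. For 412 such genes the GC-rich probe was higher in 265, with a median difference of 0.09, and it was higher by at least 1 on the log2 scale in 34 genes, while the other probe was higher by that much in 2. Of the genes up regulated on a GC-rich probe, 30 had another probe under 60% GC. Their medians were 2.04 on the GC-rich probe and 0.07 on the other, and only in 1 gene, BBC3, was the other probe at least 2-fold higher. Both sets of probes recorded the same hybridization, so that these genes have a log2 fold change that depends on the probe. With a smooth curve of log2 ratio on GC content removed, 203 genes were DEGs (172 up, 31 down), and 201 of these were among the 221.

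MEX3D, an RNA-binding protein, and BBC3 show how the probes of a gene differ. The first 30 bases of their probes are given with G and C in capitals, and the percentage is that of the whole probe. The probes of MEX3D lie at chr19:1507127-1507186 and chr19:1506205-1506264, and those of BBC3 at chr19:52423274-52423333 and chr19:52416014-52416073 (hg17).
MEX3D, 68.3% GC: GaCGGCCGCCCCCGaCGaCtGCGaCttCGG
MEX3D, 41.7% GC: taGaCaCCCCtCCCCtCCaGGGtGatCttt
BBC3, 85% GC: CCCGCCGtCaCCGCCGCCCtGGGGGGttCC
BBC3, 55% GC: aGtCtGGGaGtGGGGaGGGatGGCCCaGCC
On the first probe MEX3D gave log2 ratios of 3.06 and 2.92 on the 2 arrays, while its other probes had log2 fold changes of 0.03 and 0.06. The 5 highest DEGs on GC-rich probes with a symbol were MEX3D (2.99), CDC42EP5 (3.19, 71.7% GC), CRTC1 (2.89, 78.3%), GPR153 (2.87, 80%) and LCE5A (2.82).

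**Figure D5:**
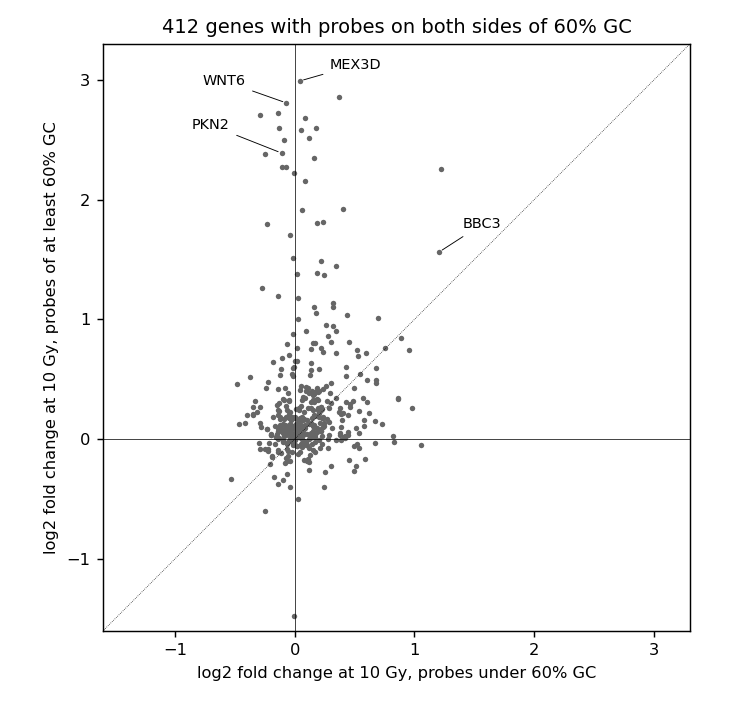
Log2 fold change at 10 Gy of 412 genes with probes on both sides of 60% GC, with the mean over the probes under 60% GC on the x axis and over the GC-rich probes on the y axis, and a dotted line at equal values. Genes with values above 1 on the y axis mostly lie close to 0 on the x axis.

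Below the limit, the composition of each end of the probe moved with the calls as well, but it was not separated from that of the whole probe. Among probes under 60% GC, 4 of the 63 (6.35%) whose first 30 bases held at least 70% G and C were up regulated, 1.12% of the 1246 with 60% to 70%, and 0.111% of the 6284 below 40%. For the last 30 bases the shares were 3.77% at 70% and above (2 of 53 genes) and 0.61% of 983 between 60% and 70%. They were 0.601% of 4491 between 50% and 60%, and 0.147% of 7480 below 40%. LBX1, a homeobox factor and the highest gene under the limit, is an example. Its probe (55% GC, chr10:102976749-102976808 in hg17) has 25 G or C in its first 30 bases, and it gave 2.75 and 2.84 on the arrays.
LBX1: GGCCtCCGCCGCCCCGGaaGCCCtCGCCGa
CKB, the brain creatine kinase, gave 2.23 and 2.26 on a probe of 58.3% GC and 0.02 on another of 55%. COX6A2, a muscle subunit of cytochrome oxidase, gave 2.21 and 2.17, and TMED9, a cargo receptor of the secretory pathway, 1.88 and 1.95, both on probes of 55% GC. PVR, a nectin-like receptor, was 1.30 (0.36 on another probe), and PES1, of ribosome assembly, 1.25 (0.22). VWCE (1.42), PACSIN3 (1.25) and NEUROG3, a neural transcription factor (1.28), had no other probe to set beside them.

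Of 26 genes up regulated on probes under 50% GC, 16 had a symbol and 6 of these belonged to the p53 lists, namely BTG2, CDKN1A, FAS, GDF15, PPM1D and TRIAP1. Of all 10822 tested genes with a symbol on such probes, 43 (0.397%) were in these lists. Between 50% and 60% GC, 39 were up regulated, 24 had a symbol and 1, FDXR, was in a p53 list, as were 7 of 3060 tested genes (0.229%) there. The probe of CDKN1A (chr6:36762684-36762743 in hg17) has 45% GC and begins with the bases shown.
CDKN1A: CatCCCtCCCCaGttCattGCaCtttGatt

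Promoter letters were compared over the 300 bases around the RefSeq start (250 before to 50 after it), on both strands, for 11626 tested genes with a promoter in the table. CCAAT was found in 36.6% of these promoters, TTTGAA in 10.5% and both in 4.49%. Of 41 genes of the mitotic lists that fell, 73.2% held CCAAT, 70.7% TTTGAA and 58.5% both. Of the 24 other genes of these lists 70.8% held CCAAT, 41.7% TTTGAA and 33.3% both. In 34 promoters of the DNA replication list CCAAT was present in 58.8% and TTTGAA in 2.94%. Of 16 down regulated DEGs with a promoter, 75% held CCAAT, 18.8% TTTGAA and 12.5% both. The last are 2 genes, CENPA and KIF23, which are among the 3 promoters shown above. The AP-1 letters TGANTCA were found in none of these 16 and in 4.97% of all. The p53 half-site was found in 9.3% of 43 promoters of the p53 lists and in 5.5% of all. It was also found in 9.76% of the mitotic genes that fell, 8.82% of the replication genes and 8.51% of the genes up regulated on GC-rich probes. Within these 300 bases it thus did not set the p53 lists apart. Sites outside them were not searched, so that p53 sites elsewhere in these genes were not compared. A match is a description of letters, not a site of binding.

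The markers of the line were checked last. Of 13 glial and neural stem markers 8 were tested, and VIM was -0.36, NES 0.29 and GFAP 0.15. The signs of VIM and GFAP turned under median centring, to 0.09 and -0.13. AQP4, FABP7, NCAM1, PROM1 and S100B were not tested because no probe passed the filter. All 11 mesenchymal glioma markers were tested, of which 5 rose and 3 fell (median 0.09), in a range from -0.71 for TNC, a matrix glycoprotein, to 0.76. Of 10 leukocyte markers 6 were tested, and PTPRC, CD3D, MS4A1 and AIF1 were not. No marker of leukocytes, endothelium, epithelium or neurons was a DEG. Both channels carried U87 RNA, so that a ratio does not show whether a marker is expressed. The leukocyte marker with the highest log2 fold change, CSF1R (0.41), had a mean log2 intensity of 10.99. The probe of CDKN2A, a gene deleted in U87, was well above background in both channels on both arrays with a mean log2 intensity of 8.89, which goes against the deletion, and its log2 fold change was 0.02 (adjusted p = 0.738). Whether this probe reads another transcript was not tested.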

How the data were processed

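The authors hybridized RNA of U87 cells on Agilent 2-colour arrays of 60-base probes and read them with Agilent Feature Extraction 9.5.3.1. The deposited scanner tables give the mean and local background intensity of both dyes at 45015 spots and the software's log10 ratio, which the deposited series matrix holds rounded (largest difference 0.005). The intensity was used for the values reported, and the log10 ratio was an alternative. In the 10 Gy scans, 64.4% to 66.5% of spots in Cy3 and 70.1% to 74.7% in Cy5 were well above background. The number of arrays limits the precision.

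Spots marked as outliers (2.98% to 3.62% of these scans) were left out, background was corrected with normexp (offset 50), a loess curve was removed from the log2 ratios (Cy5 over Cy3) of every scan, and the spots of a probe and the scans of an array were averaged. Of 41000 probes, 30403 were kept because Cy3 or Cy5 was well above background on 2/3 or more of a group's arrays. The kept probe with the highest mean intensity over all 8 arrays stood for an array name, which left 22925 of 30982 array names, 14633 with a symbol in the RefSeq table. limma 3.58.1 in R 4.3.3 fitted the means of all 4 groups to 8 arrays (22 scans), with 4 residual degrees of freedom and a prior of 6.55, so that the 2 arrays of U87 10 Gy share the spread of the others. P-values were adjusted by Benjamini-Hochberg over all genes. The design had foreseen arrays behind all 24 labels. Gene lists were described by counts and medians, with no test. Promoters came from RefSeq (GRCh38.p14), with the first listed start of a gene.

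The genes named are DEGs with a symbol on probes under 60% GC that moved the same way on both arrays. Of these the rule took the 20 lowest, of which only 19 existed, and the 15 highest. Also named are the 5 highest DEGs on GC-rich probes, the 4 most changed members of each list and the genes the study lists for 10 Gy. Others are marked as named after their values were seen. Members and lists were chosen with earlier results of these data known. In simulated data of 22926 genes, 50 of 50 genes with a true log2 change of 1.5 and 50 of 50 with -1.5 were called. All 50 at 0.5 and all 50 at -0.5 passed the adjusted p and 0 of them the 2-fold limit. Of 22726 unchanged genes 17 passed the adjusted p and 0 were called. The noise was drawn from the fit's own prior, with no dye, probe or background effect. These numbers therefore check the fit and do not give the error rate in the real data. Replicate numbers did not pair the samples, as scans with the same number had a median correlation of 0.0015 against 0.002 for other numbers. The alternatives were other background corrections and scalings, other filters, other uses of the scans, single arrays left out, other uses of a gene's probes and a GC correction. Some genes that the rule would name are not reported here.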

Additional observations from a re-analysis of the deposited data

Results flagged for a closer look

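Of the named genes with the largest changes on probes under 60% GC, 27 had a log2 fold change at 10 Gy that differed from that at 2 Gy (adjusted p under 0.05 in limma's contrast of the doses, 2 arrays each). The genes were chosen as the largest changes at 10 Gy, which favours a larger value at that dose, so that the common direction of the differences is no finding.

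Among the genes that fell, the value at 10 Gy minus that at 2 Gy on the log2 scale was FOS -0.72, FAM72D -0.52, POGZ -0.51, CENPA -0.51, TXNRD1 -0.49, QKI -0.46, NEMP1 -0.45, ID4 -0.41, ANLN -0.39, KIF23 -0.34, ADAMTS1 -0.34, KIF20A -0.33, PDP1 -0.26, NAMPT -0.25, NEK2 -0.24, SMS -0.24 and STAG2 -0.20.

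Among the genes that rose, it was NEUROG3 0.43, TMED9 0.52, VWCE 0.59, LBX1 0.63, COX6A2 0.64, CKB 0.66, LINC02907 0.72, PCNA 0.73, GDF15 0.97 and BTG2 1.11. BTG2 and GDF15, both p53 targets, had the largest differences of these. The 2 doses lay at different positions of 1 slide, and the part of position in these differences was not tested.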

How the results depend on the processing

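The main counts were 221 DEGs, 188 up and 33 down regulated. They were 871 (568 up, 303 down) with the log ratio of the scanner software, 872 (568 up, 304 down) with the series matrix, 774 (771 up, 3 down) with median centring, 99 (67 up) without probes of at least 60% GC and 1078 (724 up, 354 down) at 1.5-fold. With 24 scans in the group of their label 15 were down regulated. With outlier spots kept in the background fit they were 128 (116 up, 12 down). This last setting and those on the scan pass were chosen after the data were seen. Without array 1 or array 2 the counts were 223 to 228 in all, 189 to 200 up and 28 to 34 down. The other settings moved each count by less than 1.5 times. The replicate number as a block gave 223 DEGs (189 up, 34 down), and since the scans share only a number it does not pair them.

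Of the values of 118 genes under the alternatives, 2400 kept their direction and side of the threshold, 60 kept their direction but had an adjusted p above 0.05 (37 of them with outlier spots kept), and 7 reversed. The reversed values were 0.0882 for VIM, -0.131 for GFAP and 0.032 for EGR1 under median centring, 0.0012 for EGR1 with 24 scans by label, 0.192 for RRM2 as the mean over probes, and -0.426 for PKN2 and -0.0703 for WNT6 without probes of at least 60% GC. The last 2 come from another probe of the gene. The cause of the other changes was not tested.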

Other observations

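EGR1, an immediate early transcription factor, differed between the doses. It was singled out after its values were seen. Its log2 ratios at 10 Gy were -0.20 and -0.26 on the 2 arrays (log2 fold change -0.23), a sign that turned under median centring relative to the median of all genes (0.032) and with 24 scans used under their labels (0.0012). Its log2 fold change at 2 Gy was 1.15, and the difference of 10 Gy minus 2 Gy was -1.38 (limma, 2 arrays each). Among 32 AP-1 and immediate early genes, 14 were lower and 3 higher at 10 Gy than at 2 Gy, against 11.1% and 9.87% of all genes, and the list's median was -0.06 at 10 Gy and 0.20 at 2 Gy. FOS fell at both doses (-1.58 and -0.86).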
